A study of Mus musculus with 4 samples.

Results

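The genes described here drive or guard cell division: cyclins and their kinases, the RB and E2F proteins, the replication machinery, the anaphase-promoting complex, mitotic and cohesin proteins, p53 with its checkpoint kinases, and DNA repair factors. The rule that picked them reads gene symbols, from families of names such as Ccn, Cdk, Mcm, Rad and Fanc, and no measured value. Of the 9114 genes in the deposited table, 113 matched, and all 113 are protein-coding and passed the filter on low values (a mean of at least 10 normalised counts over the 4 libraries, met by 9063 genes). This choice of genes, the gene lists and the rules for the genes named were drawn up with earlier results of these data known.

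The cells were lymphatic endothelial cells of the brain meninges, sorted as live single cells that lacked CD45 and carried CD31 and podoplanin. They came from male C57BL/6J mice of 20 to 24 months, taken 4 weeks after 5 µL of adeno-associated virus had been injected into the cisterna magna. The virus was AAV1-CMV-mVEGF-C, which carries the mouse lymphatic growth factor VEGF-C, or the control AAV1-CMV-eGFP, which carries a green fluorescent protein. All mice of both groups thus received an AAV1 vector with the CMV promoter, which is active in many cell types. Each group had 2 libraries, replicates 1 and 2, and each library was made from the pooled meninges of 10 mice after linear amplification of the RNA.

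VEGF-C acts on lymphatic endothelium through the receptor VEGFR3 and is known for inducing its division and sprouting. A cell enters the cycle when D-type cyclins with their kinases phosphorylate RB, which frees E2F factors to switch on genes of DNA synthesis. CDK inhibitors such as p21 and p27 hold this step back, and p53, stabilised by the ATM and ATR kinases after DNA damage, switches on p21. The endothelium of adult vessels is known to be mostly quiescent.

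Depth and purity set the frame for these genes. The recovered depth was 25610683 to 28632461 reads per library. All 8 lymphatic markers examined had a row, with summed levels of 473403 to 540961 normalised counts in eGFP and 497286 to 601045 in mVEGF-C libraries. Fibroblast markers (5 of 6 with a row) summed to 25331.8 to 61484.5 and 37735.9 to 67221.7, and mural markers (2 of 6) to 8471 to 15948 and 8019.7 to 11406. Of 6 macrophage and microglia markers only Mrc1 had a row, at 27577 to 32880 and 23299 to 28512.5. This gene alone does not show which cells it came from. No marker in any list was called, and what part other cell types had in the results was not tested. Libraries of pooled cells do not tell fewer dividing cells from less RNA per cell. Nothing in the labels says that the 2 pools of a group were treated on separate occasions, so p-values rest on the spread between these pools only. The main limma test used below takes that spread from genes of similar level and not from the gene itself.

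The members lay on both sides of 0 and made up slightly less of the mVEGF-C libraries than of the eGFP libraries. Together they took 0.679% and 0.702% of all reads in eGFP 1 and 2, and 0.647% and 0.599% in mVEGF-C 1 and 2. Both mVEGF-C libraries lay below both eGFP libraries, with means of 0.691% ± 0.016 and 0.623% ± 0.034 (SD, n = 2 each), and the exact two-sided permutation test gave p = 0.333, the smallest value that 2 against 2 libraries allow. The log2 fold change, here always mVEGF-C minus eGFP of log2(normalised count + 1), was above 0 for 51 members and below 0 for 62. Its median was -0.16 over the members (-0.41 without eGFP 1 and -0.048 without mVEGF-C 2) and -0.02 over all genes tested, and the median size regardless of sign was 0.94 against 0.79. Within a pair, the members' 2 single libraries differed by a median of 0.99 (eGFP) and 1.06 (mVEGF-C) on the same scale. Over all genes tested these gaps were 0.94 and 1.07. Means of 2 libraries vary less than single libraries, so the gaps cannot be set directly against the difference between groups. With each library left out in turn, 64 of the 113 members kept their sign. The 52 members whose groups did not overlap had to keep it, and the same count over all genes tested was not made.

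Few members passed the test. A gene counts as called where limma's p, adjusted over all 9063 genes by the Benjamini-Hochberg method, is under 0.05. By that rule 2.14% of all genes were called, 0.828% higher and 1.31% lower in mVEGF-C. Among the 113 members 3 were called lower, Fancd2, Pold4 and Rad18, which is 2.65% and close to the share of all genes. Limma called 0 members higher, with 7 members higher and 12 lower at an unadjusted p under 0.05 (19 of 113, against 11.8% of all genes). EdgeR called 0 members higher and 2 lower, against 0.739% and 0.872% of all genes. DESeq2 called 7 higher and 6 lower, against 3.19% and 3.63%. The groups did not overlap for 52 members (46.0%), 22 higher and 30 lower, against 39.2% of all genes (19.4% higher and 19.8% lower). The plot by role shows both directions in every class but the 3 members outside the named classes. Among the genes named for CDK inhibitors, the 1 above 0 was Cdkn2aipnl, which is itself no CDK inhibitor.

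**Figure D1:**
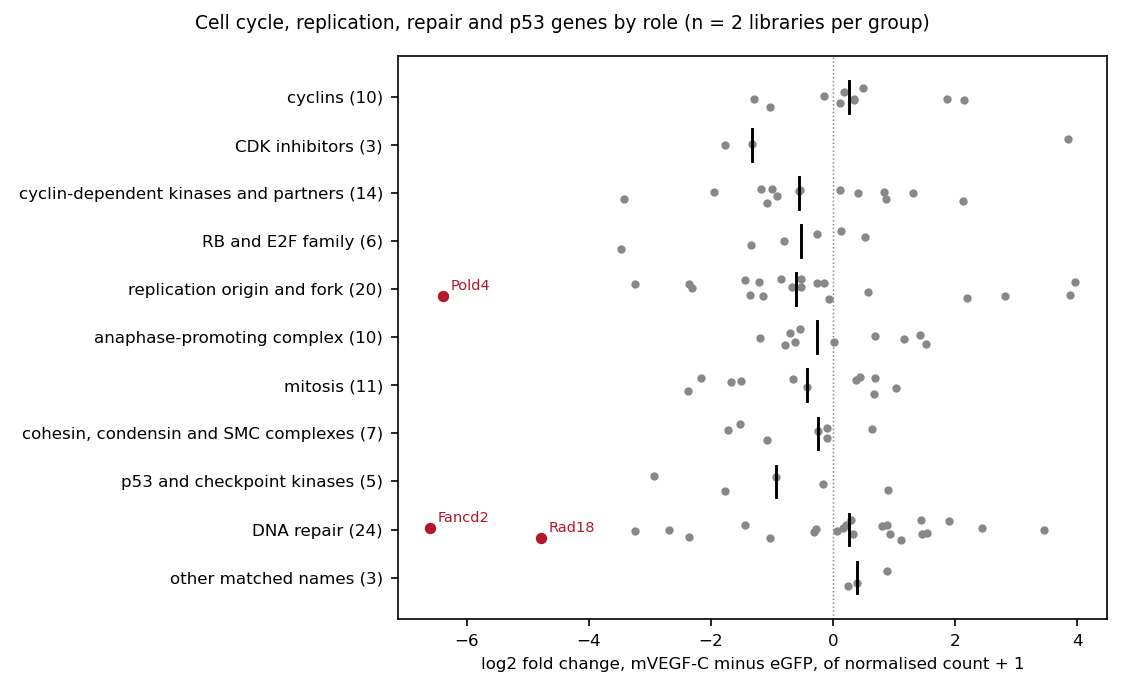
Log2 fold change (mVEGF-C minus eGFP, x axis) of each of the 113 members, 1 point per gene, by role on the y axis with the number of members in brackets. Black bars are medians, which lie between -1.32 for the CDK inhibitors and 0.39 for the other matched names, and the 3 called genes, all lower, are red and named.

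The 3 called genes were low in both mVEGF-C libraries. Pold4 belongs to replication, and Fancd2 and Rad18 to DNA repair, classes with 20 and 24 of the 113 members. Fancd2 (chromosome 6, 113531682 to 113597017, GRCm38), the Fanconi anaemia protein that is monoubiquitinated at DNA crosslinks, had 181 and 342 normalised counts in eGFP 1 and 2, and 0 and 5.57 in mVEGF-C 1 and 2. The lowest eGFP library was thus far above the highest mVEGF-C library. This gave a log2 fold change of -6.61 (SE 1.31, limma adjusted p = 0.000201). Because 1 library was at 0, this fitted value depends on the count of 1 added before taking logs, and limma gave it an interval of -9.18 to -4.03 (95%). Exons of Fancd2 are overlapped on the other strand by Fancd2os, and the strand setting of the counting is not given in the sources used here.

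Pold4 (chromosome 19, 4231899 to 4233634), the smallest subunit of the replicative DNA polymerase delta, had 379.7 and 255 normalised counts in eGFP and 0 and 13.0 in mVEGF-C libraries. Its groups were likewise far apart, with a log2 fold change of -6.38 and an SE of 1.31 (limma, adjusted p = 0.000405). Its exons are shared on the same strand with AC109138.7, so reads could be split between them. Rad18 (chromosome 6, 112619850 to 112696686), the ubiquitin ligase that marks PCNA at stalled forks, had 382 and 606 in eGFP and 5.34 and 47.4 in mVEGF-C libraries. The groups did not overlap, though the mVEGF-C pair differed by 8.87 times between its libraries. This gave a log2 fold change of -4.78 (SE 1.30, limma adjusted p = 0.0165).

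With 1 library left out, its group has a single library, which is assumed to vary like the other group's pair. Without eGFP 1 or eGFP 2 the log2 fold changes stayed about as large, at -7.06 and -6.15 for Fancd2, -6.10 and -6.67 for Pold4, and -5.12 and -4.45 for Rad18. In these smaller fits, whose spread came from the mVEGF-C pair alone, limma called none of the 3 (adjusted p of 0.0826 and 0.374, 0.173 and 0.210, and 0.273 and 0.837). With mVEGF-C 1 left out Fancd2 was still called, at -5.25, while Pold4 (-4.48, limma adjusted p = 0.0643) and Rad18 (-3.32, 0.256) were not. EdgeR called Fancd2 and Pold4 (adjusted p = 0.00795 and 0.0210) and not Rad18 (0.0870). Without the trend in variance, limma called Fancd2 alone of the 3, with adjusted p of 0.0584 for Pold4 and 0.0907 for Rad18. The share of all genes that these fits called higher and lower was 0.21% and 0.21% without eGFP 1, 0.0552% and 0.0% without eGFP 2, 0.695% and 1.27% without mVEGF-C 1, 1.15% and 2.07% without mVEGF-C 2, and 0.166% and 0.287% without the trend. After quantile normalization it was 1.09% and 1.19%, with Mcm5 and Rfc3 called higher beside the same 3 lower.

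**Figure D2:**
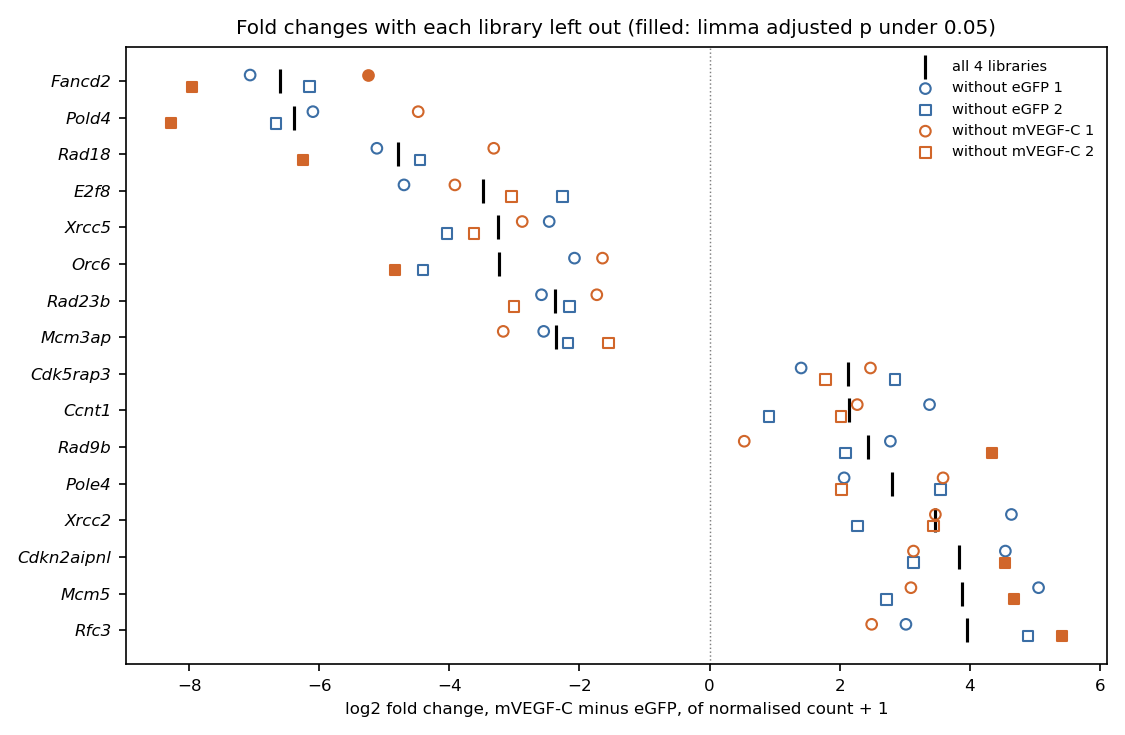
Log2 fold change (mVEGF-C minus eGFP, x axis) of the 8 lowest and 8 highest members among those without overlap of the groups and with a minimum mean of 50, by gene on the y axis, with all 4 libraries (black bar) and with each library left out in turn (coloured markers, filled where limma's adjusted p was under 0.05). All 16 genes kept their sign in each fit, which groups without overlap must do whichever library is left out. Filled markers for the genes that were not called with all libraries appear only without mVEGF-C 2.

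Cyclins, the regulatory subunits of the kinases, comprised 10 members, 7 above 0 and 3 below, with a median of 0.26 and 0 called (limma; 1 at an unadjusted p under 0.05, and 0 by edgeR and DESeq2). The highest fold change was that of Ccnt1, cyclin T1, which pairs with CDK9 in transcription elongation and not in the cell cycle. Ccnt1 had 3973 and 716 normalised counts in eGFP and 6866 and 8151 in mVEGF-C libraries, with the low value of eGFP 2 standing apart from the other 3 libraries. This gave a log2 fold change of 2.15 (SE 0.79, limma adjusted p = 0.151). The lowest was that of Ccnd1.

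The 3 D-type cyclins, which carry growth signals to CDK4 and CDK6, lay on both sides of 0. Ccnd1 had 1905 and 853 normalised counts in eGFP and 1394 and 190.5 in mVEGF-C libraries, so the groups overlapped and mVEGF-C 2 alone was low (log2 fold change -1.30, SE 1.11). Ccnd2 had 2548 and 3319 against 5351 and 2033, the mVEGF-C libraries lying on both sides of the eGFP pair (0.18, SE 0.83). Ccnd3 had 304 and 908 against 3297 and 1127, with each mVEGF-C library above each eGFP library (1.87, SE 1.07). None of the 3 passed the test (limma, adjusted p of 0.752, 0.975 and 0.521). The remaining cyclins were Ccng1 at -1.04, Ccnt2 at -0.14, Ccng2 at 0.11, the splicing-related cyclins Ccnl1 at 0.33 and Ccnl2 at 0.35, and the cyclin D binding protein gene Ccndbp1 at 0.50.

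None of the 3 genes named for CDK inhibitors was called by limma (1 at an unadjusted p under 0.05) or edgeR, and DESeq2 called 1, Cdkn2aipnl. Cdkn1b, which encodes p27, had 1339.6 and 2045 normalised counts in eGFP and 396 and 596 in mVEGF-C libraries. Both mVEGF-C libraries lay below both eGFP libraries, and the difference did not pass the test (log2 fold change -1.77, SE 1.09, interval -3.90 to 0.37, limma adjusted p = 0.574). Cdkn1a, which encodes the p53 target p21, had 1356 and 1317 in eGFP and 1287 and 220.2 in mVEGF-C libraries. The groups did not overlap, but mVEGF-C 1 lay just under the eGFP pair and mVEGF-C 2 alone was far below (log2 fold change -1.32, SE 1.10, limma adjusted p = 0.742). Cdkn2aipnl, whose product resembles a protein that interacts with the Cdkn2a product ARF and which is itself no CDK inhibitor, had 67.2 and 24.6 against 976 and 366. Every mVEGF-C library exceeded every eGFP library, with a log2 fold change of 3.84 and an SE of 1.27 (limma, adjusted p = 0.0828).

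The kinases and their partners held 14 members, 6 above 0 and 8 below (median -0.56), with 0 called by limma or edgeR, 1 by DESeq2 and 1 at an unadjusted p under 0.05. That member was Cdk1, the kinase that drives entry into mitosis. Cdk1 (chromosome 10, 69335146 to 69352938) had 23.3 and 96.2 normalised counts in eGFP and 2.14 and 5.57 in mVEGF-C libraries. The groups did not overlap, and the level was low throughout: per kilobase of exon, the 6.44 of Cdk1 ranked 8742 of 8975 genes with a known length, the lowest of all members. This gave a log2 fold change of -3.42 (SE 1.31, limma adjusted p = 0.179). Cdk6, a partner of the D-type cyclins, had 1724 and 5384 against 2693 and 1610.1, with groups that overlapped (-0.55, SE 0.87, limma adjusted p = 0.907).

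The other kinases were mostly of the transcription and atypical classes. Cdk7, of the CDK-activating kinase, was at -1.95, Cdk17, Cdk11b, Cdk13 and Cdk14 between -1.18 and -0.92, and Cdk16 at -0.56. Above 0 were Cdk15 at 0.11, the CDK2-associated Cdk2ap1 at 0.40, the elongation kinases Cdk12 at 0.84 and Cdk9 at 0.86, and Cdk18 at 1.30. Cdk5rap3, a binding partner of the CDK5 activator, had 46.6 and 128 normalised counts in eGFP and 269 and 435 in mVEGF-C libraries, with no overlap (2.13, SE 1.27, limma adjusted p = 0.556).

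The RB and E2F family had 6 members, 2 above 0 and 4 below (median -0.53), with 0 called by limma (1 at an unadjusted p under 0.05) or edgeR and 1 by DESeq2. That member was E2f8, an atypical E2F that represses cell cycle genes and, with E2f7, is known to act in lymphatic vessel development in zebrafish. E2f8 had 373 and 2026 normalised counts in eGFP and 105 and 56.7 in mVEGF-C libraries, without overlap though the eGFP pair differed by 5.44 times. This gave a log2 fold change of -3.48 (SE 1.24, limma adjusted p = 0.125). Its partner E2f7 had 689 and 2547 against 589 and 981, with overlap (-0.80, SE 1.07).

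RB itself varied little between libraries. Rb1 had 2676 and 2589 normalised counts in eGFP and 2023 and 2383 in mVEGF-C libraries, both mVEGF-C libraries slightly below (log2 fold change -0.26, interval -2.00 to 1.48, limma adjusted p = 0.968). Its relatives were less even: Rbl2, which encodes p130 of quiescent cells, had 1098 and 1782 against 201 and 1509.7, with only mVEGF-C 1 low (-1.34, SE 1.09). Rbl1, which encodes p107, had 439.7 and 129 against 705 and 95.7 and overlapped widely (0.12, SE 1.24). E2f1, an activator of S phase genes, was low in every library, at 28.7 and 96.2 against 52.3 and 111 (0.52, SE 1.31).

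Of the 20 replication factors, 15 were below 0 and 5 above (median -0.61), 1 was called lower (Pold4), 0 higher, and 7 had an unadjusted p under 0.05. EdgeR also called Pold4 alone, and DESeq2 called Pold4 lower and Mcm5, Pole4, Rfc2 and Rfc3 higher. The 2 highest were subunits of the fork machinery. Rfc3 (chromosome 5, 151642756 to 151651242), of the clamp loader that places PCNA on DNA, had 5.37 and 22.4 normalised counts in eGFP and 525 and 67.8 in mVEGF-C libraries. The groups did not overlap, but the mVEGF-C pair differed by 7.73 times (log2 fold change 3.96, SE 1.31, limma adjusted p = 0.0833). Mcm5 (chromosome 8, 75109569 to 75128439), a subunit of the MCM helicase that unwinds DNA, had 47.5 and 8.55 against 550.2 and 183. Again each mVEGF-C library was above each eGFP library (3.89, SE 1.30, limma adjusted p = 0.0883).

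The other measured subunits of the same helicase lay below 0. Mcm4 had 1132 and 410.5 normalised counts in eGFP and 609 and 156 in mVEGF-C libraries, with overlap (log2 fold change -1.14, SE 1.18). Mcm6 had 255 and 574 against 90.8 and 488, also with overlap (-0.86, SE 1.23). The remaining ring subunits Mcm2, Mcm3 and Mcm7 are not analysed here. Mcm8, of a separate helicase used in recombination, was at -1.21, Mcm10, an initiation factor, at 0.57, and Mcm3ap, whose product modifies and imports MCM3 and takes part in mRNA export, at -2.36 (1457 and 1886 against 563 and 183, no overlap).

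PCNA, the sliding clamp, was nearly equal in the groups. Pcna had 2012 and 1086 normalised counts in eGFP and 1813 and 1104 in mVEGF-C libraries, with a log2 fold change of -0.06 (interval -2.02 to 1.90, limma adjusted p = 0.996). That interval leaves room for a change of either sign. The clamp loader subunit Rfc2 had 255 and 128 against 3665 and 187, a mVEGF-C pair that differed by 19.6 times, the widest ratio among members above 0 in all 4 libraries (2.19, SE 1.20). The single-strand binding subunit Rpa1 was at -0.26.

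The origin recognition complex marks where replication starts, and its 4 measured subunits all lay below 0, with Orc6 at -3.24, Orc4 at -2.31, Orc1 at -1.45 and Orc3 at -0.68. Orc6 had 886 and 175 normalised counts in eGFP and 12.8 and 125 in mVEGF-C libraries, with no overlap and a wide spread in both pairs (SE 1.28, limma adjusted p = 0.199). Orc4 had 3077 and 8171 against 405 and 2511, with no overlap (SE 0.90, limma adjusted p = 0.187). Without mVEGF-C 2, limma called both lower. The DNA polymerase genes were Pold4 (above), Pold3 at -1.36, Pole at -0.53, Pola2 at -0.52, Pola1 at -0.15 and Pole4 at 2.81. Pole4, the small histone-fold subunit of polymerase epsilon, had 52.8 and 149.7 against 367 and 1084 without overlap (SE 1.24, limma adjusted p = 0.294).

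Promoters of these genes are shown because S phase and mitotic genes are known for 3 short elements: E2F sites, the cell cycle genes homology region (CHR) and the CCAAT box. The 250 bases before the first start listed in RefSeq were searched on both strands, in RefSeq sequence of GRCm38.p6, which was found for 97 of the 113 members. The words were TTTCCCGC, TTTCGCGC, TTTGCCGC and TTTGGCGC for E2F, TTTGAA for the CHR, and CCAAT. An E2F word was found for 12 of the 97 members (12.4%), against 3.19% of the 6372 tested genes with a promoter and 1.91% of all 27025 promoters. The CHR word was found for 11 (11.3%), against 10.7% and 16.3%, and CCAAT for 47 (48.5%), against 35.2% and 34.5%. Of the 12 members with an E2F word, 7 were among the 17 replication genes with a promoter. A match is a description of the sequence and not evidence that a factor binds there.

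The 3 promoters printed belong to the fork gene Mcm5, high in mVEGF-C, to the low Cdk1, and to the called Pold4, all 5′ to 3′ on the strand of the gene, with the words above in capitals.
Mcm5, chr8:75109259-75109508, plus strand: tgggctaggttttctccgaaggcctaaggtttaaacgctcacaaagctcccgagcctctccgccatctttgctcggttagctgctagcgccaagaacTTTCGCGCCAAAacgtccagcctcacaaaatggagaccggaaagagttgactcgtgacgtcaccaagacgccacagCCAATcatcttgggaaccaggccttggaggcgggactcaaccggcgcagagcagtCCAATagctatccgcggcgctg
Cdk1, chr10:69352913-69353162, minus strand: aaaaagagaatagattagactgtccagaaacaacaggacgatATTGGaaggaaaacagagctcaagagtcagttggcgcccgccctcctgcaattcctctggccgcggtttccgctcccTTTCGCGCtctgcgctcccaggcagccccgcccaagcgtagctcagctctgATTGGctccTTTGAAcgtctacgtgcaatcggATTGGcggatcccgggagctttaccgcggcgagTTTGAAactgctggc
Pold4, chr19:4231643-4231892, plus strand: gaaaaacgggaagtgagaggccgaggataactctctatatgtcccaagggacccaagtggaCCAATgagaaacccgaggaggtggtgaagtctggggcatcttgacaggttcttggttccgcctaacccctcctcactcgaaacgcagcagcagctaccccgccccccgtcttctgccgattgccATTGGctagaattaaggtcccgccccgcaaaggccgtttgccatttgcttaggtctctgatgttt
Distances here are from the RefSeq start, which is not the GENCODE start behind the gene coordinates given above. The RefSeq start lies 60 bases before the outermost GENCODE start in Mcm5 and 6 before it in Pold4, and 26 bases after it, inside the GENCODE gene, in Cdk1. In Mcm5 the run of capitals that begins 153 bases before the RefSeq start holds a pair of overlapping E2F words, 1 on each strand, followed by a pair of CCAAT boxes. The bases just after that start were in no GENCODE transcript of Mcm5. Cdk1 has the same E2F word TTTCGCGC, 131 bases before its RefSeq start, with CHR words of which the last begins 15 bases before that start and so lies within the GENCODE gene. Pold4 has CCAAT boxes only. The median log2 fold change was -0.01 for the 12 members with an E2F word and -0.26 for the 85 without, -0.66 for the 11 with and -0.12 for the 86 without a CHR word, and -0.26 for the 47 with and -0.04 for the 50 without CCAAT.

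The anaphase-promoting complex, the ubiquitin ligase that ends mitosis by destroying cyclin B and securin, had 10 members, 5 on each side of 0 (median -0.26). None was called by limma, edgeR or DESeq2, and 0 had an unadjusted p under 0.05. The lowest was Anapc2, its cullin subunit, with 796 and 2304 normalised counts in eGFP and 1406 and 247 in mVEGF-C libraries, which overlapped (log2 fold change -1.20, SE 1.09). The highest was Anapc10, a subunit that helps bind substrates, with 64.5 and 226 against 332 and 365 and no overlap (1.52, SE 1.25, limma adjusted p = 0.738). Between them lay Anapc4 at -0.79, Cdc16 at -0.70, Cdc27 at -0.62, Anapc1 at -0.54, Anapc16 at 0.01, Cdc26 at 0.69, Cdc23 at 1.16 and Anapc11 at 1.42.

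Among the 11 genes of mitosis, 5 were above 0 and 6 below (median -0.42), and none was called by limma, edgeR or DESeq2, with 0 at an unadjusted p under 0.05. The groups of 7 did not overlap (3 higher and 4 lower; 63.6%, against 39.2% of all genes). Mki67, the Ki-67 protein of cycling cells, had 3273 and 4268 normalised counts in eGFP and 2384 and 2332 in mVEGF-C libraries. Both mVEGF-C libraries were below both eGFP libraries, by a log2 fold change of -0.66 (interval -2.30 to 0.97, limma adjusted p = 0.87). Top2a, the topoisomerase of dividing cells, had 1032 and 373 against 126 and 149.6. Its groups did not overlap either (-2.17, SE 1.23, limma adjusted p = 0.513), whereas Top2b, its counterpart in non-dividing cells, had 6677 and 7068 against 7964 and 11034 (0.45, SE 0.59).

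Centromere proteins spanned the range of the class. Cenpo, of the inner kinetochore, was the lowest, with 123 and 580.4 normalised counts in eGFP and 11.8 and 210.0 in mVEGF-C libraries, overlapping and 17.9 times apart within the mVEGF-C pair (log2 fold change -2.37, SE 1.29). Cenpq, of the same complex, was the highest, with 10.7 and 78.0 against 44.9 and 83.6, also overlapping (1.03, SE 1.31). Cenpi was at -1.51, Cenpj, a centriole protein, at 0.37 and Cenpc1 at 0.69. The remaining genes were the phosphatases Cdc14b at -1.67 and Cdc14a at -0.42 and the kinase Plk2 at 0.66.

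Cohesin, the ring that holds sister chromatids together and shapes chromatin loops in resting cells too, was well expressed. Of the 7 members of the SMC class, 6 lay below 0 and 1 above (median -0.25), and none was called by limma, edgeR or DESeq2 (0 at an unadjusted p under 0.05). The cohesin subunit Rad21 had 3875 and 5106 normalised counts in eGFP and 5319 and 2634 in mVEGF-C libraries, with overlap (log2 fold change -0.25, interval -1.73 to 1.24). Smc1a had 5507 and 4342 against 6102 and 3412, with overlap (-0.10, interval -1.51 to 1.32). Smc3 had 5532 and 2689 against 2585 and 1269, both mVEGF-C libraries lower though by little for mVEGF-C 1 (-1.09, SE 0.86). The lowest was Smc5, with 2244 and 1257 against 515 and 499 and no overlap (-1.73, SE 1.08, limma adjusted p = 0.59); its partner Smc6 was at -0.10. The condensin genes were Smc2 at -1.52 and Smc4 at 0.63.

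The 5 genes of p53 and the checkpoint kinases had a median of -0.93, and none was called by limma, edgeR or DESeq2 (1 at an unadjusted p under 0.05). Trp53, which encodes p53, had 1992 and 3499 normalised counts in eGFP and 6914 and 803 in mVEGF-C libraries. The mVEGF-C libraries held both the highest and the lowest value and differed by 8.61 times. Limma gave a log2 fold change of -0.16 (SE 0.88), against 0.50 and 0.49 in edgeR and DESeq2, so its sign depended on the tool. Mdm2, the ubiquitin ligase that degrades p53 and is itself a p53 target, had 2417 and 1570.3 against 3422 and 3870.5, both mVEGF-C libraries higher (0.90, SE 0.86, limma adjusted p = 0.801).

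The 3 checkpoint kinases lay below 0, and none passed the test. Chek1, the kinase that halts the cycle when forks stall, had 55.5 and 56.7 normalised counts in eGFP and 6.41 and 6.50 in mVEGF-C libraries. Each pair agreed closely, and the log2 fold change of -2.94 (SE 1.31) kept between -2.95 and -2.92 with any library left out. The adjusted p was 0.304 in limma, whose variance comes from other genes of similar level. It was 0.266 in limma with the gene's own variance, 0.284 in edgeR and 0.0756 in DESeq2. Atm, the kinase that senses double-strand breaks, had 3680.3 and 1563 against 594 and 821, with no overlap (-1.78, SE 1.02, limma adjusted p = 0.528). Atr, which senses single-stranded DNA, had 1047 and 2259 against 610.0 and 1067, overlapping narrowly (-0.93, SE 1.05).

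**Figure D3:**
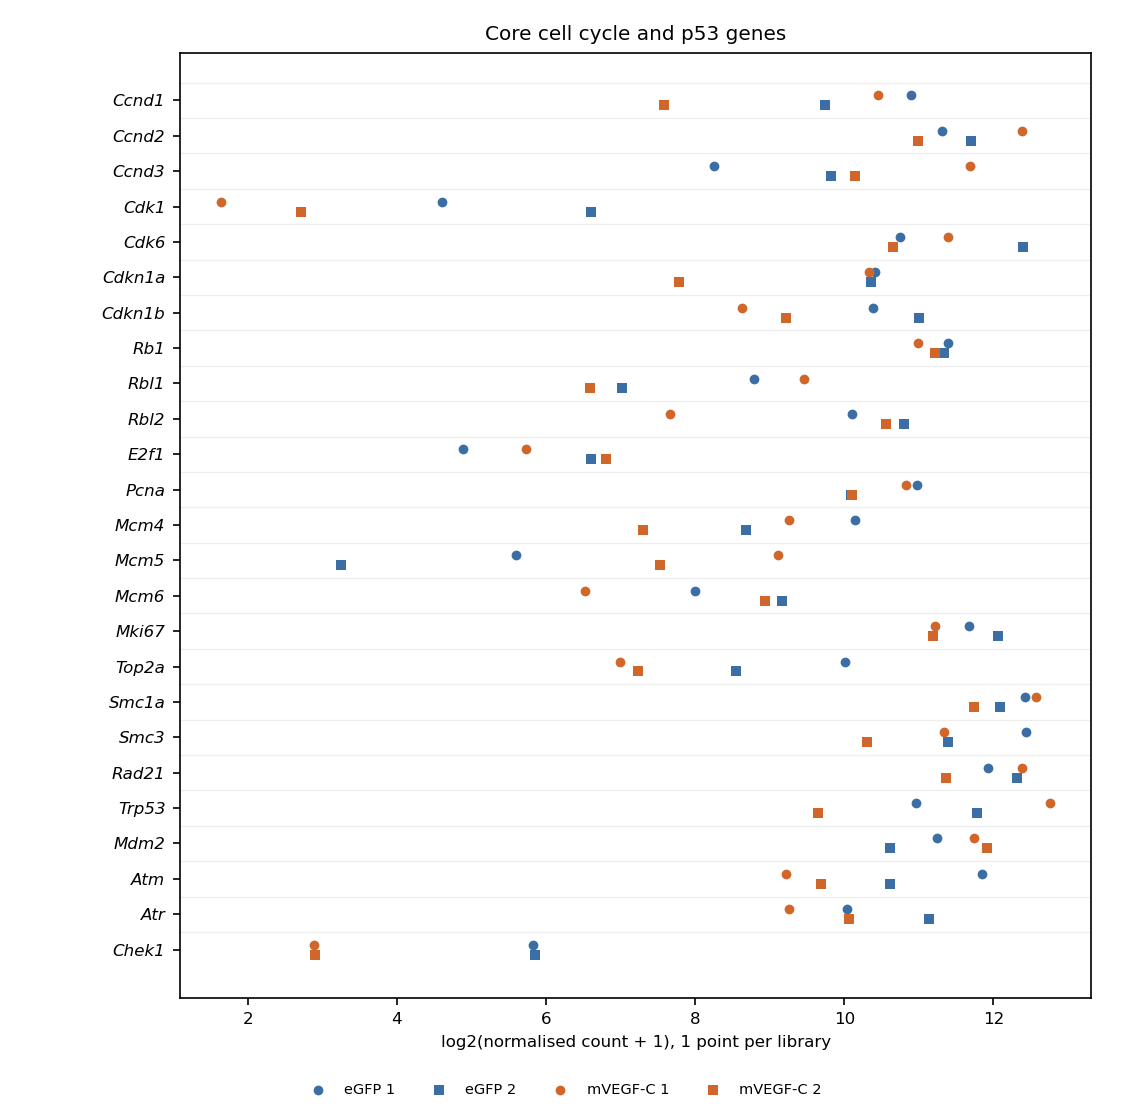
Level of the 25 core cell cycle, replication and p53 genes with a row, as log2(normalised count + 1) on the x axis and by gene on the y axis, 1 marker per library (blue eGFP, orange mVEGF-C, circles replicate 1, squares replicate 2). Among others, Cdk1, Chek1, Top2a, Mki67, Cdkn1b and Atm have both mVEGF-C markers to the left of both eGFP markers, Mcm5, Ccnd3 and Mdm2 to the right, and for Trp53 the mVEGF-C markers lie on either side.

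DNA repair was the largest class and held Fancd2 and Rad18. Of its 24 members, 15 were above 0 and 9 below (median 0.25). Limma called 2 lower and 0 higher, and 7 had an unadjusted p under 0.05; edgeR called 1 lower, and DESeq2 called 3 lower and 2 higher, the latter Rad9b and Xrcc2. The Fanconi anaemia genes, which act with Fancd2 at crosslinks, lay on both sides of 0. Fanci, whose product forms a pair with the FANCD2 protein, had 498 and 502 normalised counts in eGFP and 434 and 624 in mVEGF-C libraries, a log2 fold change of 0.06 with an interval of -2.24 to 2.35. The genes of the upstream ligase complex that modifies this pair were Fance at -1.44, Fanca at -0.31, Fancg at 0.33, Fancc at 0.88, Fancf at 1.54 and Fancl, its catalytic subunit, at 1.90. Fancl had 60.0 and 205 against 288 and 603, without overlap (SE 1.25, limma adjusted p = 0.623).

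Homologous recombination genes lay on both sides too. The highest repair gene was Xrcc2, a homologous recombination factor, with 53.7 and 9.62 normalised counts in eGFP and 262 and 267 in mVEGF-C libraries, 2 close mVEGF-C values above a wide eGFP pair (log2 fold change 3.46, SE 1.30, limma adjusted p = 0.164). Rad52 had 182 and 186 against 489 and 523, and both pairs were tight and apart (1.46, SE 1.22, limma adjusted p = 0.748). Others were Rad51ap1 at -2.69, Xrcc3 at -1.03, Rad51c at 0.17, Rad54l at 0.30, Rad50, of the complex that first binds breaks, at 0.81, and Rad54l2 at 0.94.

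The remaining repair genes act in other pathways. Xrcc5, which encodes the Ku80 protein of end joining, had 543 and 182 normalised counts in eGFP and 24.6 and 41.8 in mVEGF-C libraries, without overlap (log2 fold change -3.25, SE 1.29, limma adjusted p = 0.203). Rad23b, which recognises bulky lesions with XPC, had 3566 and 4804 against 515 and 1244, also without overlap (-2.37, SE 0.95, limma adjusted p = 0.208). Rad9b, a paralog of a checkpoint clamp subunit, had 152 and 94.1 against 2442 and 174, so its log2 fold change of 2.44 (SE 1.23, limma adjusted p = 0.416) came mostly from mVEGF-C 1. The clamp subunit Rad1 was at 0.21 and the meiotic recombination gene Msh5 at 1.12.

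**Figure D4:**
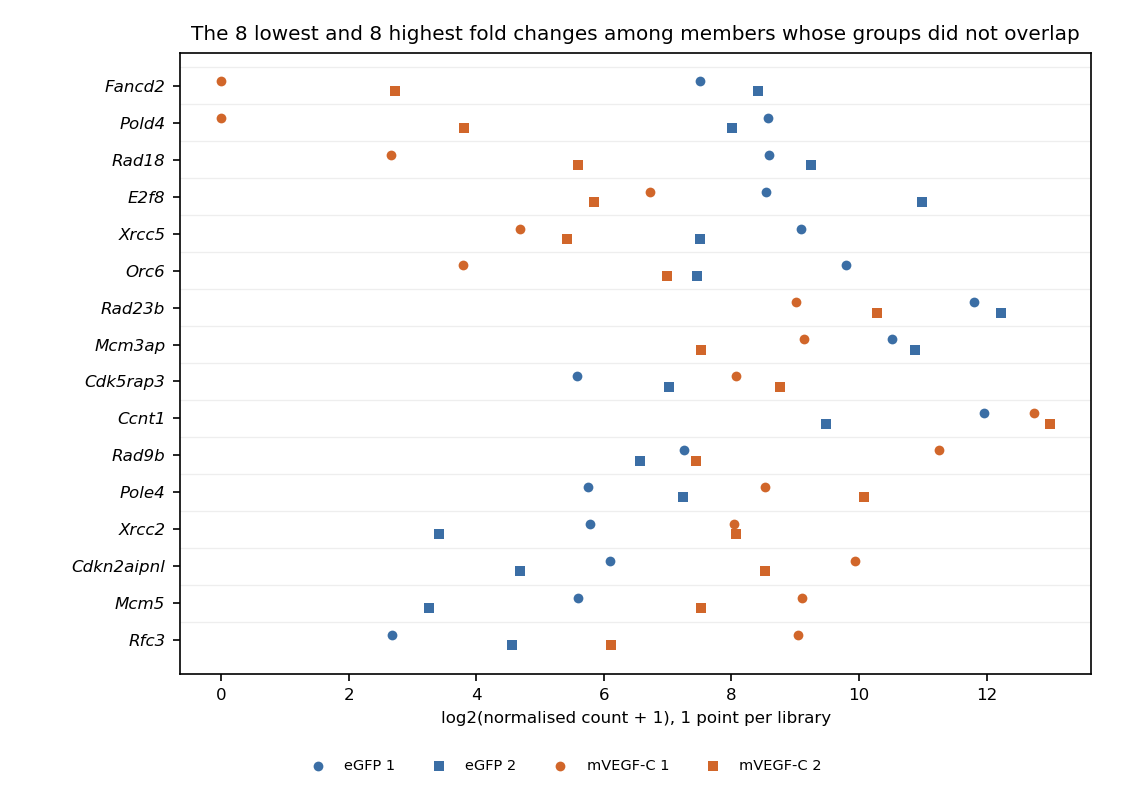
Level of the 8 lowest (top) and 8 highest (bottom) members by fold change, as log2(normalised count + 1) on the x axis and by gene on the y axis, with colours for the group and shapes for the replicate. They were taken from the 109 members with a mean of at least 50, among those of the 109 whose groups did not overlap. Fancd2 and Pold4 are at 0 in mVEGF-C 1, and several of the 8 highest have a wide gap within 1 pair, such as Rad9b and Rfc3 in mVEGF-C.

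The last 3 members carry a matching name without a role in the cell cycle proper. They are the HSP90 co-chaperone Cdc37 at 0.89, its relative Cdc37l1 at 0.25 and Cdc73, of the transcription complex PAF, at 0.39. None was called (limma, 0 at an unadjusted p under 0.05, and 0 by edgeR and DESeq2).

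Levels of different genes were compared per kilobase of exon, as mean normalised counts over the 4 libraries. The median member had 146 and the median tested gene 197 per kilobase. The 5 most abundant members were Rad21 at 1000.4, Ccnl2 at 966, Ccnl1 at 911, Smc1a at 839 and Trp53 at 816, genes that resting cells use too, and they ranked 830 to 1089 of 8975. The least abundant were the division genes Cdk1 at 6.44 and Chek1 at 6.75 and the recombination gene Rad51ap1 at 6.94. Mki67 stood at 305 (rank 3303), Pcna at 627 (rank 1572) and Top2a at 46.6 (rank 7218). Exons overlap another gene on the same strand for 6 members and on the opposite strand for 39, and where counting ignored strand such reads could not be told apart.

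**Figure D5:**
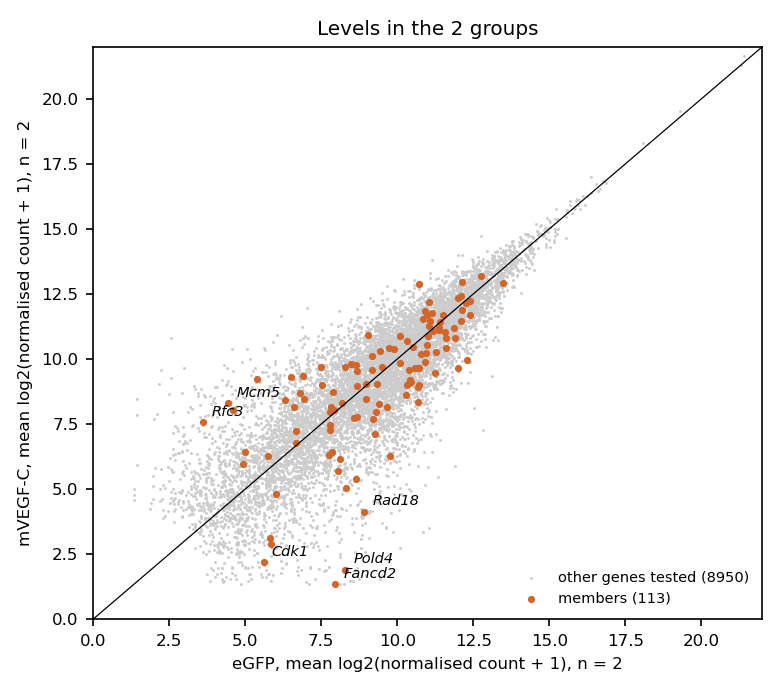
Mean log2(normalised count + 1) in the eGFP libraries (x axis) and in the mVEGF-C libraries (y axis, n = 2 libraries each), 1 point per gene, members in orange over the 8950 other genes tested in grey, with the line of equality. The members lie on both sides of the line, with Fancd2, Pold4, Rad18 and Cdk1 below it and Mcm5 and Rfc3 above it.

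Genes of the same pathways that were not members were read from 7 lists. Of 18 other mitotic genes with a row, 13 other replication genes, 11 p53 target genes, 15 p53 regulators, 30 other DNA repair genes and 4 senescence-associated genes, limma called 0 (1, 2, 2, 0, 6 and 0 with an unadjusted p under 0.05). Over these lists edgeR called Gins4 higher, and DESeq2 called Gins4, Ei24 and Rnf8 higher and Nthl1 lower. Their median log2 fold changes were -0.43, 0.17, 0.19, 0.14, -0.38 and -0.26 in that order. Of 16 cohesin and condensin partners 1 was called lower (median -0.22). Over the 106 genes of all lists limma called 0.943%, against 2.14% of all genes tested, with a median of -0.05. Limma gave 11 of the 106 an unadjusted p under 0.05, against 11.8% of all genes tested.

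The called gene was Nsmce1, a subunit of the SMC5/6 complex. Nsmce1 had 400.3 and 879 normalised counts in eGFP and 5.34 and 83.6 in mVEGF-C libraries, without overlap (log2 fold change -4.68, limma adjusted p = 0.0194). DESeq2 called it and edgeR did not, nor did limma without the trend in variance (adjusted p = 0.135) or with the gene's own variance (0.807). Limma also did not call it in the fits without eGFP 1, eGFP 2 or mVEGF-C 1, where 1 group had a single library. There the log2 fold change was -5.25, -4.11 and -2.81. Another subunit, Nsmce4a, had 118 and 205 against 24.6 and 55.7, also without overlap (-2.04, limma adjusted p = 0.604), and Nsmce2 was at 0.05.

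The p53 targets other than Cdkn1a and Mdm2 lay on both sides of 0. Trp53inp1, a p53-induced stress protein, had 1124 and 815 normalised counts in eGFP and 6541 and 3284 in mVEGF-C libraries, with no overlap (log2 fold change 2.28, limma adjusted p = 0.211). Ei24 had 134 and 321 against 2498 and 658, again higher in both mVEGF-C libraries (2.62, limma adjusted p = 0.301). Polk, a polymerase that copies damaged DNA, had 1097 and 2642 against 259 and 635, lower in both (-2.07, limma adjusted p = 0.461). Others lay nearer 0, such as Btg2 at -1.04, Sesn1 at -0.08 and Apaf1 at 0.08.

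Other repair and replication genes with an unadjusted p under 0.05 were also found in both directions, and limma called none of them. The base excision genes Ung (-3.42), Nthl1 (-2.94) and Lig3 (-2.29), the break sensor Nbn (-2.78) and the translesion factor Rev1 (-2.93) were lower, while Rnf8, the ubiquitin ligase at breaks, was higher (2.77), with 218 and 127 normalised counts in eGFP and 4423 and 292 in mVEGF-C libraries. Gins4, of the active helicase at forks, had 60.9 and 44.9 against 166 and 2487, both mVEGF-C libraries higher and mVEGF-C 2 by far (3.59, limma adjusted p = 0.118).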

How the data were processed

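The authors deposited 1 table of normalised counts, a signal per gene, for all 4 libraries. Per the submitters' processing notes the authors used FastQC, Trimmomatic, Salmon and DESeq2 on mm10, with no versions. Every value was a whole multiple of 1 read (100% whole within 0.001), so reads were recovered by division. The table holds only genes within a limit on replicate spread, as read from the values: the SD of log2(reads + 1) reached at most 2 in the eGFP pair and 2.999 in the mVEGF-C pair. Replicate spread is therefore understated, and p-values are too small. The limit was also wider in the mVEGF-C pair. Its libraries differed by up to 4.242 on this scale, against 2.828 in the eGFP pair. A gene near 0 in 1 library and not in the other could thus stay in the table more readily in mVEGF-C. Rows at 0 numbered 3 and 4 in eGFP 1 and 2, and 48 and 27 in mVEGF-C 1 and 2. What this did to the counts called higher and lower was not tested. Library depth counts the genes of the table only.

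The 2 groups were compared by limma 3.58.1 under R 4.3.3, with lmFit and a trended eBayes, on log2(normalised count + 1), two-sided, over 9063 genes with a mean of at least 10, with Benjamini-Hochberg adjustment over all of them. The count of 1 added before taking logs makes large fold changes of low genes smaller in size. Even so, limma's value was larger in size than those of edgeR and DESeq2 for all 3 called members. It was -6.61 against -6.43 and -6.51 for Fancd2, -6.38 against -5.53 and -5.59 for Pold4, and -4.78 against -4.19 and -4.22 for Rad18. For Cdk1 it was smaller in size (-3.42 against -3.87 and -3.94). The prior degrees of freedom were infinite, so the variance came from the trend and a gene's own spread did not enter its p. Members and lists were chosen with earlier results of these data known, and no set test was made. Genes were named as follows: called members, the 8 highest and 8 lowest members without overlap of the groups (minimum mean 50), 40 core genes (25 with a row, the others not analysed here), the 5 most abundant, the extremes of each role, and called list genes. Members named besides these fill out each role (2 DNA repair members are counted but not reported here), and list genes besides Nsmce1 were chosen after their values were seen. Alternatives were other pseudocounts, filters, variance models and scalings, edgeR 4.0.16, DESeq2 1.42.0, each library left out, and a replicate block. The fits were checked on simulated data. Coordinates are 1-based from GENCODE on GRCm38 (mm10). The other marker lists examined were pan-endothelial (6 of 6 with a row, sums of 75753 to 99509), blood endothelial (5 of 6, 12351 to 41015), lymphocyte (2 of 6, 4.27 to 38.5), erythroid (1 of 4, 100.4 to 318), neural (2 of 6, 238 to 1451) and arachnoid or epithelial (1 of 5, 2.79 to 80.6).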

Additional observations from a re-analysis of the deposited data

How the results depend on the processing

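The table as a whole had 75 genes higher and 119 lower with all libraries in limma. EBayes without trend called 15 and 26, each gene's own variance 0 and 0 (548 genes at an unadjusted p under 0.05), DESeq2 289 and 329, and edgeR 79 lower. With 1 library left out the counts ran from 5 to 104 higher and from 0 to 188 lower. Members called higher numbered 0 in limma, 2 after quantile normalization (Mcm5 and Rfc3) and 7 in DESeq2, and 0 to 5 with 1 library left out, the 5 being without mVEGF-C 2. Members called lower numbered 3, but 1 without trend, 0 with own variance (4 members at an unadjusted p under 0.05), 6 in DESeq2, and 0 to 5 with 1 library left out. The median over the members (-0.16) ran from -0.41 to -0.048 with 1 library left out. Scaling to 1 total put it at -0.25, with the median of all genes at -0.10. Of the named genes, 17 changed sign with 1 library left out. Their ranges were -0.51 to 0.38 for Pcna, -2.06 to 0.35 for Mcm6, -1.37 to 0.27 for Cdk6, -2.74 to 0.13 for Ccnd1, -0.52 to 0.88 for Ccnd2, -1.31 to 1.56 for Rbl1, -2.79 to 0.11 for Rbl2, -0.33 to 1.38 for E2f1, -1.72 to 1.39 for Trp53, -0.52 to 0.32 for Smc1a, -0.76 to 0.26 for Rad21, -0.52 to 1.19 for Ccnl1, -0.39 to 1.09 for Ccnl2, -2.45 to 0.054 for Anapc2, -0.28 to 1.54 for Smc4, -0.34 to 2.41 for Cenpq and -0.082 to 0.57 for Cdc37l1. Trp53 was at 0.50 in edgeR and 0.49 in DESeq2. The cause of these changes was not tested. The replicate block gave 74 higher, 129 lower and 3 members lower. Same-numbered libraries did not deviate together (correlation 0.00013), so the numbers are not shown to pair them.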

Other observations

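Rad18 and Fancd2, both called lower, lie on chromosome 6 with 835 kb between the end of Rad18 and the start of Fancd2. Of the 11 other genes tested that start between them, 8 had a log2 fold change below 0, with a median of -0.76, and 1 was called lower by limma. Over all 9063 genes tested, 4581 were below 0, the median was -0.02 and 1.31% were called lower. That gene was Jagn1, which encodes a membrane protein of the endoplasmic reticulum, with 113 and 173 normalised counts in eGFP and 0 and 14.9 in mVEGF-C libraries (limma, adjusted p = 0.00911). DESeq2 also called it (adjusted p = 0.0137), edgeR did not (0.0934), nor did limma without the trend (0.107) or without eGFP 1, eGFP 2 or mVEGF-C 1 (adjusted p = 0.273, 0.821 and 0.335), fits in which 1 group had a single library and the log2 fold change was -5.45, -4.84 and -3.15. Genes between them were also higher, such as Srgap3 with 8819 and 6713 against 9716 and 11518. This stretch was examined after the calls were seen, and whether neighbouring genes differed together was not tested.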
